A study of Mus musculus with 12 samples.

Results

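Gstm1, Gstm2, Gstm3, Gstm4, Gstm5, Gstm6 and Gstm7 are the mu-class glutathione transferase genes of the mouse, and they lie together in 1 cluster on chromosome 3. They were chosen from the results of these same livers, because Gstm5 was among the strongest rises, and the other 6 genes entered by family name, to ask whether the rise of Gstm5 is shared by its neighbours. The members are 7 of the 55401 genes in the count table, and all 7 passed the filter on low counts that left 13205 genes for testing. Livers of 12 female mice aged 15 weeks were measured by RNA-seq, 6 of them iTgMir483 and 6 Control. In iTgMir483 mice a single extra copy of Mir483 sits at the Rosa26 locus under Tet-off control, so that doxycycline silences it. According to the study's methods, a CMV-Cre transgene, which is active in nearly all tissues, deleted the Neo cassette of the targeted allele. Doxycycline was given to pregnant dams and then withdrawn, so Mir483 was over-expressed in the whole body from birth and not in the liver alone. Control mice were littermates, and their own genotypes are not listed beyond control. The study describes a cross of heterozygous transgenic sires with dams homozygous for CMV-Cre, in which offspring without the transgene also inherit CMV-Cre.

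Glutathione transferases join the thiol of glutathione to electrophilic compounds, which makes the products more soluble and ready for export. The cytosolic enzymes work as dimers and are grouped into classes by sequence, and the mu class is abundant in rodent liver. Gstm1 is the main mu-class enzyme of mouse liver, whereas Gstm5 is a divergent member best known from brain and testis. Transcription of several of these genes is known to respond to Nrf2 (Nfe2l2), which binds antioxidant response elements, and to the receptors that sense foreign compounds.

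Library totals ranged from 12244123 to 30431286 counts in Control livers and from 12415140 to 15846175 in iTgMir483 livers. Mir483 had 0 counts in all 6 Control libraries and 318 to 761 counts in the iTgMir483 libraries, as the labels say. Of the 13205 genes tested, 1110 were called higher and 360 lower in iTgMir483 livers, a call needing both a fold change over 1.5 and an adjusted p under 0.05. The library numbered 1 was the highest of its group for all 7 mu-class genes in Control livers, for some by a small margin. In iTgMir483 livers it was the highest for 5 of the 7 and the lowest for Gstm5. The results of the members are therefore given with and without the libraries numbered 1. Nothing states whether mice with the same number were handled together. In bulk RNA, fewer cells of a type and less RNA per cell cannot be told apart.

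The cluster spans 149.1 kb, from 107895821 to 108044894 on chromosome 3 (GRCm38). Gstm5 (107895821 to 107898686) lies at its left end and is the only member on the plus strand. Gstm7 (107926334 to 107931817), Gstm6 (107938847 to 107943749), Gstm3 (107963696 to 107969283), Gstm2 (107981702 to 107986453), Gstm1 (108012255 to 108017973) and Gstm4 (108040408 to 108044894) follow in that order on the minus strand. The start sites of Gstm5 and Gstm7, its nearest neighbour in the family, are 36.0 kb apart. The protein of Gstm5 has 224 residues where the other 6 have 218, and it is 59.8% to 67.9% identical to them. Identity among the other 6 runs from 72.5% to 84.4%, so Gstm5 is the most divergent member. This separation also bears on the counts. No stretch of 50 bases, the length of the sequenced reads, was shared between the exons of Gstm5 and those of another member, and the same held for Gstm4 and Gstm7. Gstm3 shared 15.9% of its 50-base windows with Gstm1 or Gstm6, Gstm1 shared 8.88% with Gstm2 or Gstm3, Gstm6 shared 3.49% and Gstm2 shared 0.65%. Windows also occurred in genes outside the family, such as Gm8834, Gm6665 and the pseudogene Gstm2-ps1, for 24.0% of those of Gstm3, 18.4% of Gstm1, 5.65% of Gstm2, 3.58% of Gstm6 and 0.53% of Gstm7. In Gstm5 this share was 9.44%, all of it with the antisense gene 4933431E20Rik. How the counting treated reads from such windows is not given in the sources used here, so the levels of the genes that share windows are uncertain to that extent, Gstm3 having the highest share among members.

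The promoter windows of RefSeq (GRCm38.p6), which run from 250 bases before to 50 bases after a start, covered all 7 members with 12 windows. Each was searched on both strands for the core of the antioxidant response element, TGACNNNGC, and for the core of the xenobiotic response element, GCGTG, which the aryl hydrocarbon receptor binds. The first was found in 1 window of Gstm5 and in 1 of the 2 windows of Gstm7, against 12.4% of all 32851 windows in the table. The second occurred 2 times in the window of Gstm5 and 1 time in a stretch that both windows of Gstm1 hold, against 32.4% of all windows. The windows of Gstm2, Gstm3, Gstm4 and Gstm6 held neither. Gstm5 is printed because the results turn on it, Gstm7 because it also holds the first motif, and Gstm2 because it was the other member to pass the test, with capitals marking the motifs and each sequence read 5′ to 3′ on the strand of its gene.
Gstm5, chr3:107895604-107895903, plus strand: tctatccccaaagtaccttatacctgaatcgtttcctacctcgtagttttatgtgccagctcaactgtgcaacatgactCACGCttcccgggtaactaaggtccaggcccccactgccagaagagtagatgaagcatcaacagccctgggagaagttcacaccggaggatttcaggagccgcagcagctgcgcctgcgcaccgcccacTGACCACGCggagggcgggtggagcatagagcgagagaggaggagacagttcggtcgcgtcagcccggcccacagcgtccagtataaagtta
Gstm7, chr3:107931565-107931864, minus strand: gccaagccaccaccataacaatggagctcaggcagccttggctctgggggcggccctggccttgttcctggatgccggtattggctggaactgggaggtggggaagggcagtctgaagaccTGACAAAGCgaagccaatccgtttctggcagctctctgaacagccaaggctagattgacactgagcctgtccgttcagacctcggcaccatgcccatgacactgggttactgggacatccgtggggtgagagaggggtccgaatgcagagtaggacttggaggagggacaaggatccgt
Gstm2, chr3:107986371-107986670, minus strand: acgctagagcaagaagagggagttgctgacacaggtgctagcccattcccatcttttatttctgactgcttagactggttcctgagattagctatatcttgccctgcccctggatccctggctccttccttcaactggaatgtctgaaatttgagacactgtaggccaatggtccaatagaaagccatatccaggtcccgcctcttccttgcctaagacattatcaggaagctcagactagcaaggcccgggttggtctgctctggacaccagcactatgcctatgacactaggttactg
In Gstm5 the first motif begins 42 bases before the start, and a xenobiotic core read on the opposite strand lies inside it. The window of Gstm5 held 18 CpG dinucleotides, and the median over all windows was 7. A match describes the letters only, and binding was not measured.

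Gstm5 was low in every Control liver and high in every iTgMir483 liver. Its level in Control livers had a lowest value of 5.49, a median of 6.65 and a highest value of 8.35 CPM, which are counts scaled by TMM library size to a common total. In the iTgMir483 livers, in order of replicate number, it was 112.5, 347.2, 329.4, 424.8, 304.8 and 340.2 CPM. The groups were far apart, and the lowest iTgMir483 liver was replicate 1. These levels rest on 60 to 193 counts per Control library and 1545 to 5797 counts per iTgMir483 library. The means were 6.58 ± 1.05 CPM (SD, n = 6) in Control and 309.8 ± 104.8 CPM (SD, n = 6) in iTgMir483 livers, a 47.1-fold difference. This log2 fold change of 5.55, with a standard error of 0.28, is given as a description with no p because this rise chose the family. Per kilobase of exon, Gstm5 ranked 5004 of 13198 genes in Control and 174 in iTgMir483 livers, so a gene of middling level became one of the more abundant transcripts. Without both replicate 1 libraries its log2 fold change was 5.80 (SE 0.14).

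**Figure D1:**
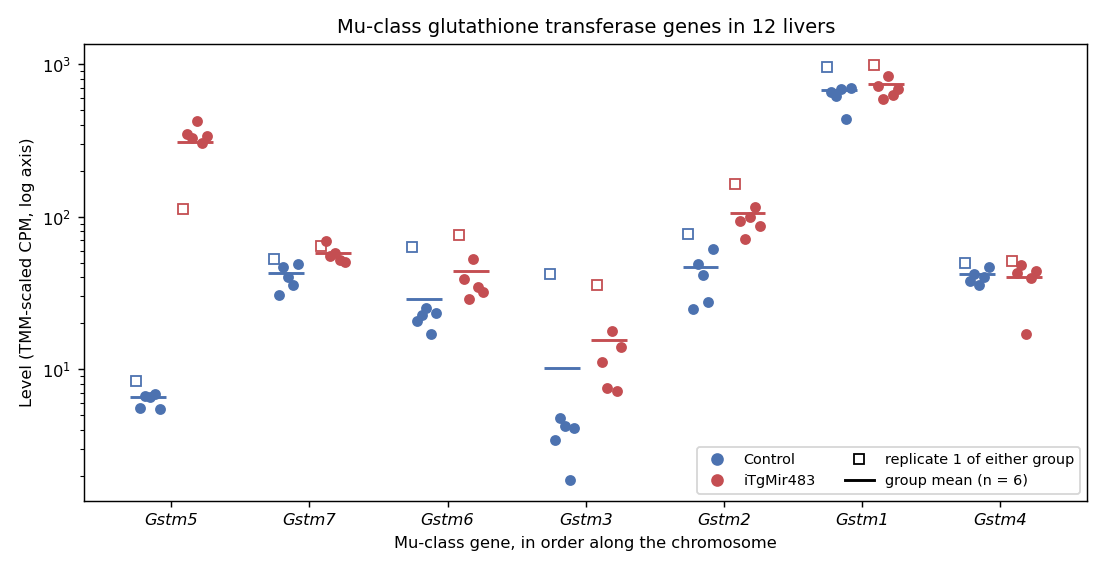
Levels of the 7 mu-class genes in TMM-scaled CPM on a log axis, ordered along the chromosome; each point is 1 liver, open squares are the replicate 1 livers and bars are group means of 6. Gstm5 moves from 5.49 to 8.35 CPM in Control to 112.5 to 424.8 CPM in iTgMir483 livers, while the open squares lie at or near the top of both groups for the other genes.

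Gstm2 was the only other member that passed both thresholds in all 12 livers. Its level ranged from 24.9 to 77.2 CPM around a median of 45.3 in Control livers, and from 71.5 to 162.6 CPM around a median of 96.4 in iTgMir483 livers. Groups overlapped only because Control replicate 1, at 77.2 CPM, exceeded iTgMir483 replicate 3, at 71.5 CPM. The means were 46.9 ± 20.1 and 105.0 ± 31.7 CPM (SD, n = 6 each), with a log2 fold change of 1.16 (SE 0.27, edgeR adjusted p = 0.00848 over all genes tested). Without both replicate 1 libraries the difference was 2.29-fold (edgeR adjusted p = 0.00316), and every remaining iTgMir483 liver was above every remaining Control liver.

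Gstm3 and Gstm6 are the members whose result turned on replicate 1. Gstm3 was at 42.3 CPM in Control replicate 1 and between 1.88 and 4.81 CPM in the other 5 Control livers. In iTgMir483 livers it was at 35.8 CPM in replicate 1 and between 7.14 and 17.7 CPM in the others. With all livers its means of 10.1 ± 15.8 and 15.6 ± 10.7 CPM (SD, n = 6 each) gave a log2 fold change of 0.61 (SE 0.68, edgeR adjusted p = 0.563), well within the spread between livers. With both replicate 1 libraries left out, a choice made after seeing the data, the means were 3.70 ± 1.13 and 11.5 ± 4.47 CPM (SD, n = 5 each). The log2 fold change was then 1.63 (SE 0.29, edgeR adjusted p = 0.00241) and the groups did not overlap. Dropping Control replicate 1 alone gave 2.06 (edgeR adjusted p = 0.00421). Dropping iTgMir483 replicate 1 alone gave 0.18 (edgeR adjusted p = 0.885), so the result depended on which of these libraries was left out.

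Gstm6 behaved in the same way on a smaller scale. Its level was 63.0 CPM in Control replicate 1 against 17.1 to 25.2 CPM in the other Control livers, and 76.0 CPM in iTgMir483 replicate 1 against 28.9 to 52.7 CPM in the other iTgMir483 livers. On the log2 scale the difference was 0.61 (SE 0.31, edgeR adjusted p = 0.186) with all livers and 0.78 (SE 0.16, edgeR adjusted p = 0.00500) without both replicate 1 libraries. Without Control replicate 1 alone it was 1.01 (edgeR adjusted p = 0.00797), and without iTgMir483 replicate 1 alone it was 0.38 (edgeR adjusted p = 0.383). The 5 remaining iTgMir483 livers, at 37.5 ± 9.31 CPM, all lay above the 5 remaining Control livers, at 21.8 ± 3.07 CPM (SD).

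Gstm7, the member nearest to Gstm5, shifted by less than the fold threshold. Its level ranged from 30.8 to 52.5 CPM (median 43.4) in Control and from 50.2 to 69.1 CPM (median 56.5) in iTgMir483 livers. The groups overlapped through Control replicate 1, at 52.5 CPM. The log2 fold change was 0.45 (SE 0.13, edgeR adjusted p = 0.0265), a 1.37-fold difference that passed the threshold on p and missed that on size. It was 0.49 (edgeR adjusted p = 0.0210) without both replicate 1 libraries, when the groups no longer overlapped. Over the 19 alternatives run, the adjusted p ranged from 0.0132 (DESeq2) to 0.0629 (edgeR, without Control replicate 5), so the threshold on p was not always passed.

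Gstm1 and Gstm4 did not pass the test. Gstm1 ranged from 435.4 to 954.0 CPM (median 673.6) in Control and from 592.2 to 991.6 CPM (median 704.2) in iTgMir483 livers, and the ranges largely coincided. Its log2 fold change was 0.14 (SE 0.18, edgeR adjusted p = 0.620), with a 95% interval from -0.21 to 0.48. Gstm4 ranged from 35.8 to 49.4 CPM (median 41.1) in Control and from 17.0 to 51.0 CPM (median 43.5) in iTgMir483 livers. The low end was 1 liver, iTgMir483 replicate 4, and the other 5 were at 39.9 CPM or more. The log2 fold change of Gstm4 was -0.051 (SE 0.20, edgeR adjusted p = 0.884) with all livers and 0.11 (edgeR adjusted p = 0.512) without that liver, and its interval with all livers ran from -0.44 to 0.34.

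In all, 2 of the 7 members were called higher, Gstm5 and Gstm2, where 8.41% of all genes tested were, and the call of Gstm5 was fixed by how the family was chosen. No member was called lower, where 2.73% of all genes were, and by edgeR, DESeq2 and limma-voom alike 0 members were lower at an unadjusted p under 0.05. All 6 iTgMir483 livers lay above all 6 Control livers for 1 of 7 members, Gstm5, against 5.09% of all genes. Without both replicate 1 libraries 4 of 7 members were called higher, Gstm2, Gstm3, Gstm5 and Gstm6, against 9.44% of genes. The 5 remaining iTgMir483 livers then lay above the 5 Control livers for every member but Gstm1 and Gstm4, against 8.66% of genes. Control replicate 1 was the highest Control liver for all 7 members, so leaving it out lowered every Control maximum. This omission was made after seeing the data, and Gstm5 chose the family, so these counts are descriptions and no test against all genes. No neighbour approached the size of the rise of Gstm5. The log2 ratio of Gstm5 to another member was taken within each liver and averaged per group. This mean was higher in iTgMir483 livers by 4.16 for Gstm3, the least, to 5.58 for Gstm4, the most. Without both replicate 1 libraries it was higher by 4.19 for Gstm3 to 5.96 for Gstm4. With all livers the ratios of the groups overlapped for Gstm3 only, with a highest Control value of 1.85 and a lowest iTgMir483 value of 1.65.

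**Figure D2:**
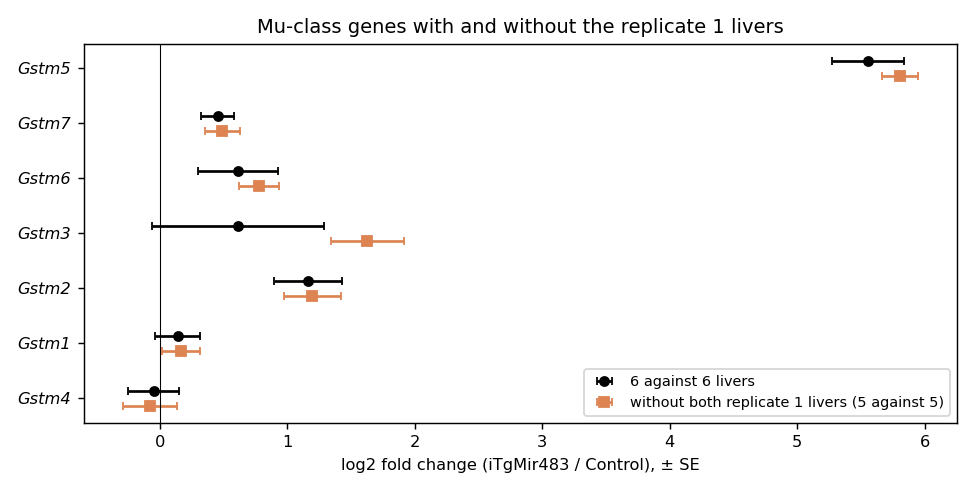
log2 fold changes (iTgMir483 over Control) with standard errors for the 7 members, with all 6 livers per group (black circles) and without both replicate 1 livers (orange squares). Gstm3 moves from 0.61 to 1.63 and its standard error shrinks from 0.68 to 0.29, whereas Gstm1 and Gstm4 lie between -0.075 and 0.16 in both fits.

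The liver numbered 1 held the highest level of all 7 members among the 6 Control livers, where it was the highest of its group for 25.1% of all genes tested. Relative to the mean of the other Control livers it was 11.4-fold for Gstm3, 2.89-fold for Gstm6, 1.89-fold for Gstm2, 1.54-fold for Gstm1, 1.34-fold for Gstm5, 1.29-fold for Gstm7 and 1.22-fold for Gstm4. Among iTgMir483 livers replicate 1 was highest for 5 of the 7 members, second for Gstm7 and lowest for Gstm5, where its level was 0.322 of the mean of the others. Replicate 1 of that group was the highest of the 6 for 19.4% of all genes tested. Gstm5 and the rest of its family thus lay at opposite ends of the range in this liver. Gstp1, the pi-class enzyme, and Gsta3, an alpha-class enzyme, were also high in Control replicate 1, at 190.9 CPM against 51.2 to 95.9 CPM and at 1677 CPM against 748 to 881.8 CPM in the other Control livers. Over the 15 tested glutathione transferase genes of other classes, replicate 1 was the highest of its group for 6 and the lowest for 2, in Control and in iTgMir483 livers alike.

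Per kilobase of annotated exon, Gstm1 dominated the family in Control livers. Its level was 458.6 ± 113.6 CPM per kb (SD, n = 6), followed by Gstm2 at 28.0 ± 12.0, Gstm7 at 26.5 ± 5.20, Gstm4 at 24.6 ± 3.07, Gstm6 at 14.4 ± 8.57, Gstm3 at 7.73 ± 12.0 and Gstm5 at 5.15 ± 0.82. Neighbours in this order were compared within livers by a two-sided exact sign-flip permutation test over the 6 Control livers, whose smallest possible p is 0.0312. None of the 6 adjacent pairs passed after adjustment, which would take 4 pairs at that smallest value; with the longest annotated transcript as the length, 4 of the 6 passed. Gstm1 exceeded Gstm2 in 6 of 6 Control livers (exact p = 0.0312, adjusted p = 0.125). Per kilobase of annotated exon, Gstm2 and Gstm7 did not differ beyond their spread, and neither did Gstm7 and Gstm4. The same held for Gstm3 and Gstm5, where the mean of Gstm3 was carried by replicate 1. Without that liver Gstm7 stood before Gstm2 and Gstm5 before Gstm3. In iTgMir483 livers Gstm5 was second at 242.4 ± 82.0 CPM per kb (SD, n = 6), after Gstm1 at 505.1 ± 100.7, and above Gstm2 at 62.5 ± 18.9 in 5 of 6 livers, replicate 1 being the exception.

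The summed level of the 7 members was 852.3 ± 223.3 CPM in Control and 1317 ± 157 CPM in iTgMir483 livers (SD, n = 6 each). Without Gstm5 the sums were 845.7 ± 222.8 and 1007 ± 206.3 CPM, so Gstm5 made up most of the difference. Without both replicate 1 libraries the sums were 773.5 ± 125.3 and 1282 ± 146.2 CPM, and 767.2 ± 125.6 and 932.2 ± 105.6 CPM when Gstm5 was left out too (SD, n = 5 each). These sums are descriptions and were not tested. Gstm5 contributed 0.951% ± 0.255 of the family's level per kilobase in Control livers and 27.2% ± 9.07 in iTgMir483 livers (SD, n = 6 each). The share was 8.86% in iTgMir483 replicate 1 and 29.3% to 32.8% in the other 5. The share of Gstm1 was 81.3% ± 2.82 in Control and 55.6% ± 6.08 in iTgMir483 livers, while its own level did not pass the test.

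**Figure D3:**
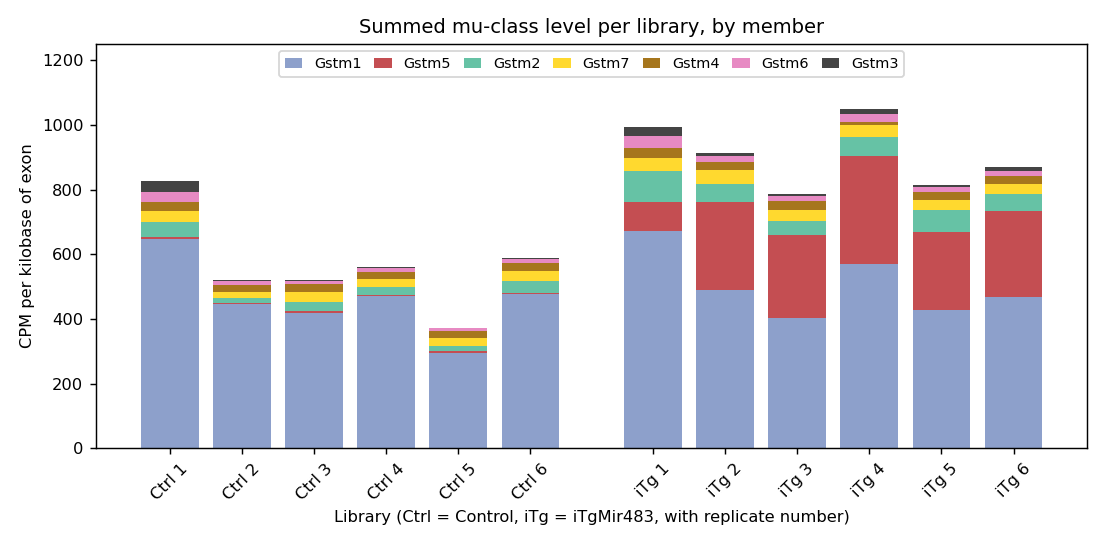
Level of each mu-class gene in CPM per kilobase of exon, stacked for each of the 12 livers. The red block of Gstm5 takes 0.729% to 1.43% of the bar in Control livers and 29.3% to 32.8% in iTgMir483 livers 2 to 6, with 8.86% in iTgMir483 replicate 1.

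Genes around the cluster were examined to see whether the rise of Gstm5 extended beyond the family. The annotation holds 54 other genes within 500 kb of the ends of the cluster, of which 15 were tested and 21 had 0 counts in every library. Among the 54, 9 lie between the members, and none of these had more than 3 counts in a library. Of the 15 tested genes 3 were called higher, against 8.41% of all genes, and 0 lower by edgeR, DESeq2 or limma-voom, with 4 lower at an unadjusted p under 0.05. The first of the 3 was 4933431E20Rik, an antisense gene that overlaps the start of Gstm5 on the opposite strand. It was at 2.74 to 4.46 CPM in Control and at 4.37, 7.64, 10.6, 3.81, 11.0 and 11.9 CPM in iTgMir483 livers 1 to 6, with a log2 fold change of 1.17 (SE 0.27, edgeR adjusted p = 0.00902). Its lowest iTgMir483 liver was replicate 4, where Gstm5 was highest. The exons of 4933431E20Rik cover 178 bases, or 13.9%, of those of Gstm5, and since the strand setting of the counting is not given, reads from this overlap cannot be assigned to either gene.

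The other called genes lay farther away. Csf1, a growth factor of macrophages, starts at -135.4 kb relative to Gstm5, and its log2 fold change was 0.70 (SE 0.15, edgeR adjusted p = 0.00645), or 0.56 and under the fold threshold without iTgMir483 replicate 4. 5330417C22Rik starts 640.7 kb to the right and had a log2 fold change of 1.32 (SE 0.26, edgeR adjusted p = 0.00422). Ahcyl1, the next tested gene to the left of Csf1, was at -0.42 (edgeR adjusted p = 0.00457). On the right of Gstm4, Ampd2, which encodes an AMP deaminase, was at 0.19 (edgeR adjusted p = 0.369), Gm12500 at -0.35 (edgeR adjusted p = 0.501) and Gnai3, a G protein subunit, at -0.40 (edgeR adjusted p = 0.0127). None of these 4 reached the fold threshold.

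**Figure D4:**
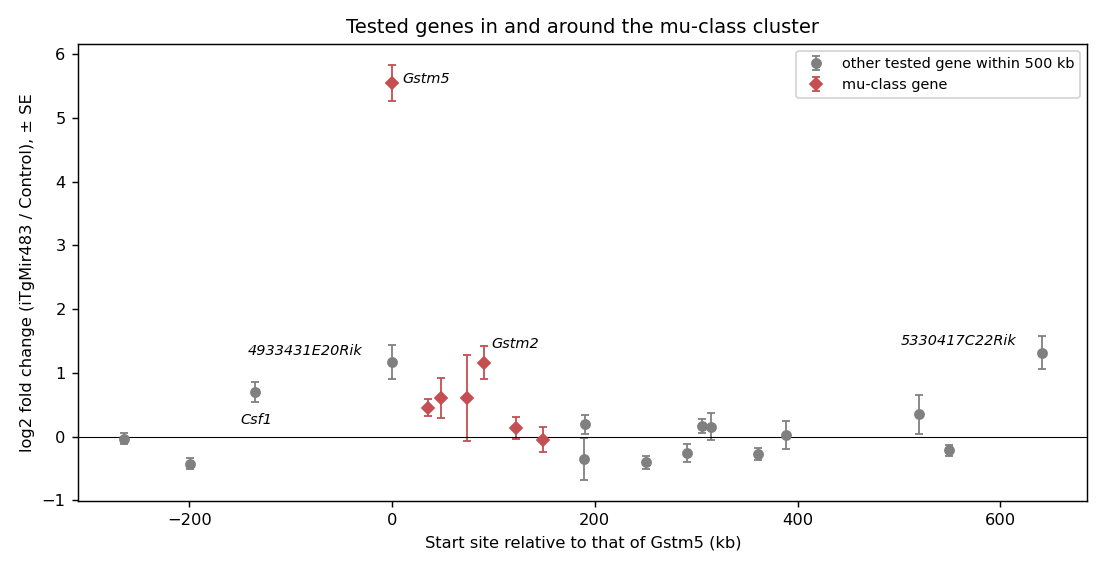
log2 fold change (iTgMir483 over Control) with its standard error for the 7 members (red diamonds) and the 15 tested flanking genes (grey circles), against the distance of each start site from that of Gstm5 in kilobases. Gstm5, at 5.55, stands alone, and the next highest values are 1.32 for 5330417C22Rik, 1.17 for 4933431E20Rik and 1.16 for Gstm2.

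The over-expressed gene yields 2 mature microRNAs, and the members were searched for matches to their seeds. The sequences from RefSeq are shown with the seed, bases 2 to 8, in capitals.
mmu-miR-483-3p: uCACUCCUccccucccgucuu
mmu-miR-483-5p: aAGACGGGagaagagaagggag
The longest annotated 3′ untranslated region of each member, from 137 bases in Gstm5 to 828 in Gstm4, held no match to the seed of miR-483-3p, AGGAGTG. The match to miR-483-5p, CCCGTCT, occurred 1 time, in Gstm4 at base 739 after the stop codon (ttcagagtatCCCGTCTtggtcaccag), and Gstm4 did not pass the test in either direction. A match describes the sequence only.

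The genes whose profile over the 12 livers was nearest to that of Gstm5 were found by the root mean square difference of log2 CPM, each taken relative to its own Control mean. The nearest 5 of all tested genes were Gm30524 (distance 0.659), the chemokine Cxcl1 (0.931), the receptor gene Il9r (0.961), Ssbp2 (1.19) and the Hedgehog effector Gli2 (1.21). Cxcl1 was at 0.782 ± 0.474 CPM in Control and 21.1 ± 11.1 CPM in iTgMir483 livers, and Ssbp2 at 1.54 ± 0.35 and 23.5 ± 6.20 CPM (SD, n = 6 each). Gm30524, Il9r and Gli2 were at or near 0 in Control livers, at most 4 counts in a library, and at 1.45 ± 0.40, 3.05 ± 1.27 and 2.39 ± 1.24 CPM in iTgMir483 livers (SD, n = 6). No mu-class gene was near: Gstm2 ranked 334 by distance, Gstm3 533, Gstm6 1413, Gstm7 1927, Gstm1 4530 and Gstm4 9337. The distance mostly follows the size of the difference between groups, and likeness of profile says nothing about shared control.

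Of 21 glutathione transferase genes of the other classes 15 were tested, of which 2 were called higher, against 8.41% of all genes, and 1 lower, against 2.73%. Hpgds, the prostaglandin D synthase of the sigma class, went from 1.21 ± 0.33 to 4.28 ± 1.12 CPM (log2 fold change 1.80, SE 0.23, edgeR adjusted p = 0.000319). Gstp3 of the pi class went from 8.65 ± 2.19 to 29.1 ± 5.41 CPM (1.76, SE 0.18, edgeR adjusted p = 5.25e-05). Gstt3 of the theta class fell from 70.5 ± 15.7 to 31.4 ± 18.5 CPM (-1.17, SE 0.31, edgeR adjusted p = 0.0174). The median log2 fold change of the list was -0.066, and that of all genes tested was 0.0058. Gstp1 was at -0.23 (edgeR adjusted p = 0.586) and Gsta3 at -0.074 (edgeR adjusted p = 0.882), with replicate 1 the highest liver of both groups for each gene. Without both replicate 1 libraries they were at -0.085 (edgeR adjusted p = 0.727) and -0.13 (edgeR adjusted p = 0.596), and without Control replicate 1 alone at 0.087 and 0.17.

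**Figure D5:**
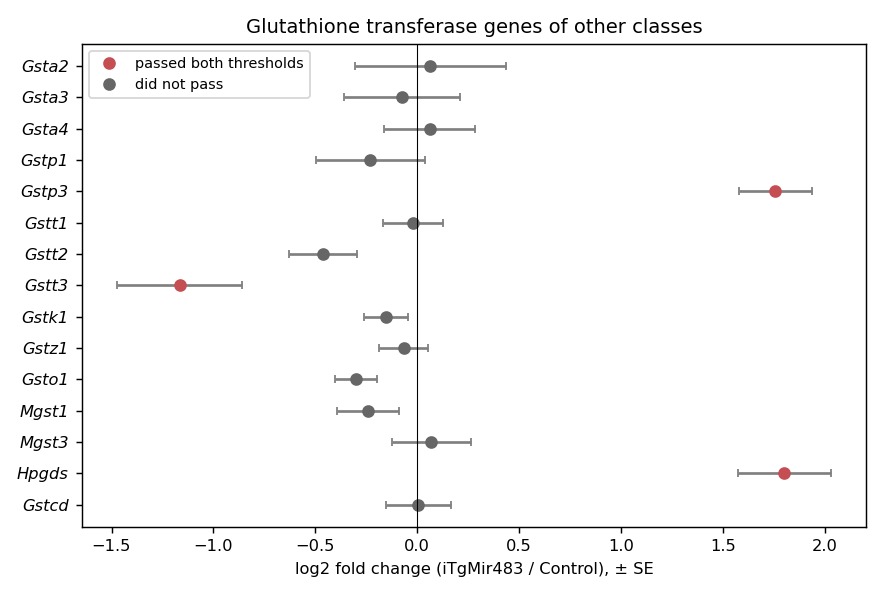
log2 fold change (iTgMir483 over Control) with its standard error for the 15 tested glutathione transferase genes outside the mu class; red points passed both thresholds. Hpgds (1.80) and Gstp3 (1.76) lie to the right, Gstt3 (-1.17) to the left, and the other 12 did not pass.

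Of 24 tested genes that make, recycle, use or export glutathione, 3 were called higher, against 8.41% of all genes. Another 3 were called lower by edgeR, against 2.73%. DESeq2 and limma-voom each called 4 lower, the added gene being Abcc3. The median log2 fold change of the list was -0.027. Higher were Abcc4 (1.22, edgeR adjusted p = 0.00251) and Abcc1 (0.86, edgeR adjusted p = 0.00521), which export conjugates, and Gpx4 (0.66, edgeR adjusted p = 0.00117), which reduces lipid peroxides. The export genes did not all move this way. Abcc3 was at -0.58 (edgeR adjusted p = 0.00572), just under the fold threshold, and Abcc2 at 0.28 (edgeR adjusted p = 0.202). In Control livers the mean of Abcc3 was 413.1 CPM, that of Abcc4 6.49 and that of Abcc1 2.61. Lower were Cth, which supplies cysteine (-0.97, edgeR adjusted p = 0.00195), Glrx, a glutaredoxin (-0.88, edgeR adjusted p = 0.00878), and the peroxidase Gpx1 (-0.66, edgeR adjusted p = 0.0133), which without iTgMir483 replicate 6 was at -0.57, under the fold threshold. Gclc, the catalytic subunit of the enzyme that limits glutathione synthesis, was at -0.56 (edgeR adjusted p = 0.186) with all livers and at -0.53 (edgeR adjusted p = 0.0742) without both replicate 1 libraries. It was at -0.30 (edgeR adjusted p = 0.407) without Control replicate 1 alone, and only the omission of iTgMir483 replicate 1 alone, of the 19 alternatives run, gave a call (-0.78, edgeR adjusted p = 0.0491).

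Of 18 tested genes that are known targets of Nrf2 outside the mu class, 3 were called higher, against 8.41% of all genes. By edgeR 0 were called lower, with 2 lower at an unadjusted p under 0.05, and the median log2 fold change was 0.031. These 2, Abcc3 (-0.58, edgeR adjusted p = 0.00572) and Txnrd1 (-0.37, edgeR adjusted p = 0.0161), passed the threshold on adjusted p and missed that on size. So did Pgd in the other direction (0.46, edgeR adjusted p = 0.0127). DESeq2 and limma-voom each called 1 lower, Abcc3. The higher genes were Abcc4, Hmox1, which degrades heme (1.15, edgeR adjusted p = 0.00556), and G6pdx, which supplies NADPH (0.75, edgeR adjusted p = 0.0161). Without iTgMir483 replicate 4, G6pdx was at 0.57, under the fold threshold, which left 2 called higher. Nqo1, a quinone reductase often read as a marker of Nrf2, was at 0.043 (edgeR adjusted p = 0.861), and Nfe2l2 itself at 0.37 (edgeR adjusted p = 0.0406), under the fold threshold.

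Markers of other cell types moved between the groups beside these results. Macrophage markers were called higher for 6 of 7 by edgeR and DESeq2 and for 4 of 7 by limma-voom, against 8.41% of all genes by edgeR, with a summed level of 205.4 to 305.9 CPM in Control and 322.0 to 821.5 CPM in iTgMir483 livers. Bile duct markers were called higher for 3 of 6 tested, with sums of 39.1 to 63.6 and 75.4 to 116.4 CPM, and both tested neutrophil markers were called higher, against the same 8.41%. Of 8 hepatocyte markers 2 were called lower, Cps1 and Ass1, against 2.73% of all genes, with sums of 127300 to 177100 CPM in Control and 66790 to 136100 CPM in iTgMir483 livers. Alb made up most of these sums, at means of 111900 CPM in Control and 76070 CPM in iTgMir483 livers, and it was not called (edgeR adjusted p = 0.160). No stellate, endothelial or lymphocyte marker passed, among 7, 6 and 1 tested, by edgeR, DESeq2 or limma-voom. At an unadjusted p under 0.05 by edgeR, 1 stellate and 2 endothelial markers were higher and the 1 lymphocyte marker was lower. No marker of any list was at 0 in all libraries. The part of cell composition in the levels of Gstm5, Gstm2 and the other members was not tested.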

How the data were processed

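The members and all gene lists were chosen with earlier results of these data known. The authors prepared stranded poly(A) libraries from liver RNA, sequenced paired reads of 50 bases, aligned them to GRCm38 with STAR and deposited raw counts per Ensembl gene. Neither the strand setting nor the handling of reads that map to several genes is given in the sources used here. All 55401 rows named a gene, and 55141 had a symbol in GENCODE M21 (GRCm38), an annotation release other than the authors', which also gave positions and exon lengths. Promoter and microRNA sequences are from RefSeq (GRCm38.p6).

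Titles gave groups and replicate numbers, and a single pool was labelled. Library pairs within a group differed far beyond sampling noise (chi-square per gene at least 15.7), so each library was 1 replicate; p-values measure the spread between these samples. After filterByExpr and TMM scaling, groups were compared in edgeR 4.0.16 (R 4.3.3, limma 3.58.1) by the quasi-likelihood test, adjusted by Benjamini-Hochberg over 13205 genes and tested on simulated data. Library totals of 12244123 to 30431286 counts set the precision. Alternatives used RLE scaling, other count filters, limma-voom, DESeq2 1.42.0, a replicate block and the omission of each library. The omission of both replicate 1 libraries was added after seeing the data.

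Named genes are the members, Mir483, the 5 genes nearest to Gstm5 in profile, the 3 tested genes nearest to the cluster on each side, called flanking genes, the 3 largest called changes per direction in each list, and Gstp1, Gsta3, Gclc, Nqo1 and Nfe2l2. Abcc2, Abcc3, Txnrd1, Pgd, Alb, Cps1 and Ass1 were named after their values were seen.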

Additional observations from a re-analysis of the deposited data

Results flagged for a closer look

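Within each group of 6, the gap between the highest or lowest liver and the next was divided by the range of log2 CPM, and a liver is listed where this ratio exceeds Dixon's critical value at 95%. Of 74 such tests 11 exceeded it, where chance gives about 1 in 20, or 3.7. Among the members these were Gstm3 in Control replicate 1 (0.699), Gstm6 in Control replicate 1 (0.704; 63.0 CPM against 17.1 to 25.2), Gstm5 in iTgMir483 replicate 1 (0.750; 112.5 CPM against 304.8 to 424.8) and Gstm4 in iTgMir483 replicate 4 (0.775; 17.0 CPM against 39.9 to 51.0). Control replicate 1 was also high for Gsta3 (0.796) and low for Cth (0.833; 512.8 CPM against 813.0 to 891.5) and Glrx (0.865; 36.8 CPM against 71.7 to 79.5). iTgMir483 replicate 1 was high for Nfe2l2 (0.677; 127.0 CPM against 82.1 to 94.6), and iTgMir483 replicate 4 was low for Ampd2 (0.676; 21.5 CPM against 28.9 to 33.3). The remaining 2 were a low Gnai3 in Control replicate 3 (0.677) and a low Abcc1 in Control replicate 6 (0.706).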

How the results depend on the processing

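The number of members called higher was 2 under RLE size factors, both other count filters, DESeq2 and limma-voom. It was 4 with the replicate number as a replicate block and 4 without both replicate 1 libraries, and 2 to 4 when single libraries were left out, the 4 arising without Control replicate 1. Under the replicate block the log2 fold change was 1.25 for Gstm3 (edgeR adjusted p = 0.0150) and 0.68 for Gstm6 (edgeR adjusted p = 0.00620). The numbers were not taken to pair the mice: deviations of same-numbered livers correlated at 0.419 for number 1, 0.157 for number 5 and 0.0313 to 0.0566 for the other 4, and the block gave 1530 changed genes against 1470 without it. Over the 19 alternatives run, the log2 fold change of Gstm5 ranged from 5.44 to 5.80 and that of Gstm2 from 0.99 to 1.36, and Gstm2 passed in all 19. Gstm1 (0.039 to 0.26) and Gstm7 (0.37 to 0.52) were called in none of the 19, and neither was Gstm4, which ranged from -0.13 without iTgMir483 replicate 1 to 0.11 without iTgMir483 replicate 4. Leaving out single libraries changed the number of glutathione supply, use and export genes called lower to between 2 and 5, and of Nrf2 targets called lower to between 0 and 2. Nrf2 targets called lower were 1 under RLE size factors, no filter, the replicate block, DESeq2 and limma-voom, this gene being Abcc3, whose log2 fold change of -0.58 lay at the fold threshold. When single libraries were left out, Gstp1 ranged from -0.40 without iTgMir483 replicate 1 to 0.087 without Control replicate 1, and Gsta3 from -0.37 to 0.17 under the same omissions. Gsta3 also turned without iTgMir483 replicate 3 (0.036) or replicate 6 (0.021). Nqo1 ranged from -0.048 without Control replicate 1 to 0.13 without Control replicate 6, and was -0.079 without both replicate 1 libraries. With the longest annotated transcript as the length, 4 of the 6 neighbouring pairs in the order of Control levels passed. The cause of these changes was not tested. Counts per Control library were as low as 28 for Gstm3 and 0 for Gm30524, Il9r and Gli2, which limits the precision of their values.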
